A study of Mus musculus with 15 samples.

Results

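Oligodendrocyte nuclei with more Anln, Hapln2 and A330049N07Rik than Il33, Opalin and C030029H02Rik were taken from single-nuclei RNA sequencing (snRNA-seq). The tissue was micropunches enriched for the dorsal hippocampal formation (dHF). The paper states that the punches also took in parts of cortex, thalamus and ventral hippocampus. No step here removed oligodendrocytes of those regions. A barcode, which stands for 1 nucleus, was first taken as an oligodendrocyte when it had at least 500 detected genes, at least 5 unique molecular identifiers (UMIs) of St18, Mog and Mag together, none of Gad1 and Gad2, and at most 1 of Slc17a7. It was then placed in the Anln/Hapln2 type when the summed UMIs of Anln, Hapln2 and A330049N07Rik reached at least 2 and exceeded the summed UMIs of Il33, Opalin and C030029H02Rik. This gave 8128 nuclei of 134019 barcodes in all. They were 6.10% of the 133236 barcodes with at least 500 genes and 28.6% of the 28466 oligodendrocyte nuclei. The mirror rule gave 15297 nuclei of the Il33/Opalin type (53.7% of oligodendrocyte nuclei), 1600 nuclei (5.62%) had equal sums of at least 2, and 3441 (12.1%) had both sums under 2. Because the members were selected on measured UMIs, the levels of the genes named in these rules, and every difference between both types, are given as a description with no test.

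The study set virgin, nulliparous mice (NP) beside dams with reproductive experience, either undisturbed (control RE) or stressed in the late postpartum period (stress RE). All were female wild-type C57BL6/J mice, bought as young adults, with no transgene, and the virgins were age-matched to the dams. Control RE mice went through pregnancy, birth and lactation until weaning, and stress RE mice went through the same with scarce nesting material and daily separation from the pups. The labels name the groups NP, ControlPP and StressPP, and do not give the age at tissue collection. There were 6 NP, 4 control RE and 5 stress RE mice, each with a library of its own from pooled micropunches of both hemispheres. The labels place NP mice 27 and 31 and stress RE mouse 70 in batch 1, which held no control RE mouse, and 2 mice of every group in each of batches 2 and 3.

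Oligodendrocytes wrap axons in myelin, a stack of membrane rich in cholesterol and glycolipids, and support the axons with metabolites. Mature oligodendrocytes are not uniform, and their genes for adhesion, proteases, lipid handling and ion transport differ between cells of the same tissue. Anln encodes anillin, an actin-binding scaffold that organizes septin filaments in myelin, Hapln2 encodes a link protein of the matrix at nodes of Ranvier, and A330049N07Rik is a gene of unassigned function. Trf encodes the iron carrier transferrin, St18 a zinc finger transcription factor, and Mog and Mag encode glycoproteins of the myelin sheath.

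The windows around the start sites of the 3 genes that select the type, and of Klk6, the protein-coding gene with the largest difference between both types, are shown because these genes are read together throughout. They are RefSeq promoter windows of GRCm38.p6, 300 bases each, read on the strand of the gene from 250 bases before to 50 after its start. Capitals mark the core motif of SOX factors, ACAAAG, and the core motif of MYRF, CTGGCAC, on either strand, which do not overlap here. Anln lies on the minus strand at chr9:22389157-22389456, Hapln2 on the minus strand at chr3:88027462-88027761, A330049N07Rik on the minus strand at chr10:73086656-73086955, and Klk6 on the plus strand at chr7:43824294-43824593.
Anln: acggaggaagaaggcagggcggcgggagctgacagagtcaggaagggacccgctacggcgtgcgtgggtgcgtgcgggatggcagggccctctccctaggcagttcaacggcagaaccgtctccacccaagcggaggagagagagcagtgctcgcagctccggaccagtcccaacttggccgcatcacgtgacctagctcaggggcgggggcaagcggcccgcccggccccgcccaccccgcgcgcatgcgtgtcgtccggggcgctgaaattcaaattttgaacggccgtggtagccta
Hapln2: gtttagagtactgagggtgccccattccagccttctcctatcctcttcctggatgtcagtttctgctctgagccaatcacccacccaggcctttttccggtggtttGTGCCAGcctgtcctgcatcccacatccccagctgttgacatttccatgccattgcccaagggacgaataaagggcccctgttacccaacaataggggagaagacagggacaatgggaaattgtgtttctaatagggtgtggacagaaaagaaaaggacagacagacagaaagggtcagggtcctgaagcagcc
A330049N07Rik: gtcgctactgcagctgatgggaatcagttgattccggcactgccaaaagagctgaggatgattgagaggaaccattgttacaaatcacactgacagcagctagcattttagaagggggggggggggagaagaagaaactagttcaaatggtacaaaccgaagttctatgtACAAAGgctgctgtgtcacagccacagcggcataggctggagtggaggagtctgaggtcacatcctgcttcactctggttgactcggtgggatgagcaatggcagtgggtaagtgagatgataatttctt
Klk6: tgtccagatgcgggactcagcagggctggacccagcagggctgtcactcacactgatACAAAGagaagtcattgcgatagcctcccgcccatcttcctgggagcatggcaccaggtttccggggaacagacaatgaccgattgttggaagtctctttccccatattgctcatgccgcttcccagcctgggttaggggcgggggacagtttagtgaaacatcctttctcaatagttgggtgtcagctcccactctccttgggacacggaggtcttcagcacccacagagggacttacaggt
The letters ACAAAG were found in the windows of A330049N07Rik and Klk6, and CTGGCAC in that of Hapln2, while the Anln window held neither. Among all 32851 windows of the table, 18.7% held ACAAAG and 5.01% held CTGGCAC. A second window of Klk6, at a later start, held neither.

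Each library held between 5789 and 12738 barcodes, with 40602582 to 96211264 UMIs in sum. Members had a median of 2035 to 4455.5 UMIs per nucleus in a mouse and 1218 to 2067 detected genes, and their UMIs summed to 1091427 to 3010289 per mouse. In all 15 mice the median member had more UMIs than the median nucleus of the Il33/Opalin type, by 1.05-fold to 1.16-fold. No member had more than 5% mitochondrial UMIs. Of 131768 distinct barcode sequences, 2211 occurred in at least 2 libraries, and 295 of the member barcodes also occurred in another library, of which 11 were members in at least 2 libraries. Scrublet, a doublet caller, placed 7.38% of members in the highest-scoring part of their library, against 7.47% of all barcodes. The deposited counts carry no correction for free RNA, which gives nuclei UMIs of genes they do not express. Markers of other cells were present in members at levels below the whole library for 12 neuron markers (summed 5789 to 13519 CPM, which is a gene's UMIs as a share of all UMIs in the summed nuclei of a mouse, on a fixed scale, library median 33677) and for 10 astrocyte markers (485 to 1075 CPM, library median 1340) in all 15 mice. OPC markers summed to 373 to 956 CPM (library median 1451) and microglia markers to 66.9 to 280 CPM (library median 206), the latter below the library in 14 of 15 mice. Thalamic or habenular neuron markers summed to 623 to 943 CPM in members (median 769) against a library median of 554 CPM and were below the library in 3 of 15 mice, but most of the sum was Plekhg1, with a mean of 638 CPM in members, and the next genes were Lef1 at 40.2, Nwd2 at 36.5, Slc17a6 at 22.5 and Prkcd at 20.9 CPM. Vascular, choroid and ependymal markers together had a median of 60.6 CPM (library 103) and striatal neuron markers 19.0 CPM (library 66.6). Among the former, Ttr, a choroid plexus gene, had a mean of 59.8 CPM in members, from 5.14 to 238 CPM over mice. None of the markers in these lists was at 0 in members.

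St18, Mog and Mag, which the rule requires, are given as a description. The St18 level in members was 3496 CPM ± 250 (SD, n = 15 mice), that of Mog 646 CPM ± 61.3 and that of Mag 819 CPM ± 166. Mbp, a myelin gene that the rule did not use, had 3409 CPM ± 544 in members and a mean of 28.5 CPM in excitatory neurons. Trf, also not used, had a UMI in 93.6% of members, in 87.02% of Il33/Opalin-type nuclei and in 12.2% of 4217 excitatory neurons, which should lack it. The neurons were far deeper, with a median of 13743 to 26742 UMIs in a mouse. Of the selecting genes, Anln had a UMI in 86.1% of members, A330049N07Rik in 83.7% and Hapln2 in 62.1%. All 3 genes were seen in 3488 members (42.9%), 2 of them in 3745 (46.1%) and a single one in 895 (11.0%). No UMI of Il33, the gene of an alarmin cytokine, Opalin, the gene of an oligodendrocyte membrane glycoprotein, or C030029H02Rik was seen in 2639 members (32.5%).

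Between mice the levels of the selecting genes varied. The Anln level in members was 558 to 793 CPM against 137 to 211 CPM in the Il33/Opalin type, a median log2 ratio of 2.10. Hapln2 had 224 to 428 against 75.9 to 159 CPM, and A330049N07Rik 495 to 757 against 142 to 238 CPM. The Trf level was 869 to 1609 CPM in members and 599 to 1098 CPM in the Il33/Opalin type, so that both ranges overlapped, while within a mouse it was higher in members in 15 of 15 mice (log2 ratio 0.49 to 0.67). Members with sums of 2 held the least evidence, with 1007 nuclei, against 2440 with sums of 3 or 4 and 4681 with sums of at least 5.

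At the edge of the rule, 2081 members had a sum of 2 for Anln, Hapln2 and A330049N07Rik, or an excess of 1 UMI. The 2071 nuclei just outside it had equal sums of at least 2, or 1 UMI of these genes and none of the Il33 set. Members at the edge had 392 CPM ± 57.6 (SD, n = 15) of Anln and 193 CPM ± 26.9 of Il33. Nuclei just outside had 333 CPM ± 61.3 of Anln and 241 CPM ± 50.3 of Il33. Klk6, with 4.06 CPM ± 5.30 just inside and 3.79 CPM ± 2.702 just outside, was higher just inside in 5 of 15 mice. Enpp6 had 164 CPM ± 48.8 inside and 123 CPM ± 33.4 outside (higher inside in 12 of 15 mice), Piezo2 36.3 ± 13.0 and 21.5 ± 10.7 CPM (13 of 15), Gm32122 6.37 ± 4.74 and 2.39 ± 2.95 CPM (12 of 15) and Kirrel3 1056 ± 245 and 1377 ± 232 CPM (1 of 15). For these genes the levels near the edge lay between the means of both types.

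Beyond the genes of the rule, members differed from the Il33/Opalin type in genes such as Klk6, Piezo2, Enpp6 and Kirrel3 and in several long noncoding RNAs. Of 6919 genes with at least 20 CPM in either type, 513 (7.41%) had a higher level in members in all 15 mice and 336 (4.86%) a lower one in all 15, while the median log2 ratio over all of them was -0.004. The ratio is the log2 of the CPM of members over that of the Il33/Opalin type, with 1 CPM added to each. Both types came from the same libraries, and these counts rest on the same split that chose the members.

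The protein-coding genes with the largest ratios were Klk6, which encodes a secreted serine protease, and Piezo2, which encodes a mechanically gated ion channel. The Klk6 level in members was lowest at 8.72, at the median 25.0 and highest at 43.2 CPM over the 15 mice, against 0, 0.731 and 2.28 CPM in the Il33/Opalin type, with a median log2 ratio of 3.34. The Piezo2 level was 43.6, 70.1 and 98.2 CPM in members against 3.79, 8.49 and 12.0 CPM, with a ratio of 2.94. For both genes the lowest mouse in members lay above the highest in the Il33/Opalin type. Klk6 nevertheless had a UMI in only 5.83% of members, against 0.307% of Il33/Opalin-type nuclei and 0.0711% of excitatory neurons. Piezo2 had one in 15.4% of members, 1.82% of Il33/Opalin-type nuclei and 1.33% of neurons.

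Other protein-coding genes among the leading 12 had ratios of 1.82 to 2.49. Enpp6, a choline-specific phosphodiesterase known as a marker of newly forming oligodendrocytes, had 199, 274 and 364 CPM (lowest, median and highest mouse) in members and 26.1, 44.4 and 74.7 CPM in the Il33/Opalin type. Its ratio was 2.49, and it had a UMI in 48.9% of members, 10.4% of Il33/Opalin-type nuclei and 1.19% of neurons. Of 11 measured genes of progenitors and newly formed oligodendrocytes, only Enpp6 and Mpzl1 were higher in members in all mice. None was lower in all mice, and the median ratio of that list was -0.09. Over all measured genes 7.41% were higher and 4.86% lower in all mice. Agmo, which cleaves ether lipids, had 180, 229 and 296 CPM in members against 47.5, 63.9 and 78.4 CPM, a ratio of 1.89. Plin3, a coat protein of lipid droplets, had 26.9, 49.2 and 61.8 CPM against 7.39, 12.2 and 19.7 CPM. Slc5a11, a sodium-coupled transporter of myo-inositol, had a ratio of 2.03 and Tspan9, a tetraspanin, one of 1.88. For Enpp6, Agmo, Plin3, Slc5a11 and Tspan9 the mice of both types did not overlap. Tdrd6, a Tudor-domain gene known from germ cells, had a ratio of 1.95, and its levels of 10.9 to 40.9 and 1.46 to 11.0 CPM touched.

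Noncoding transcripts took 4 of the 12 leading places. A530053G22Rik, on chromosome 6 (GRCm38, 60279043 to 60403707, minus strand), had 124, 163 and 332 CPM in members against 3.52, 8.22 and 31.3 CPM, the largest ratio of all at 4.15. It had a UMI in 12.7% of members, so its level came from a minority of nuclei. The long intergenic RNAs A330072L02Rik, Gm32122 and 6030407O03Rik had ratios of 2.94, 3.18 and 3.16. Among the 12 genes the last of them varied most between mice, from 0.87 to 3.69.

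The other direction was led by Kit, the receptor of stem cell factor, at 4.98, 8.36 and 20.6 CPM in members against 26.6, 67.3 and 98.2 CPM, a ratio of -2.74. Kit had a UMI in 30.97% of the far deeper excitatory neurons against 2.51% of members and 13.0% of Il33/Opalin-type nuclei. Its share in members lay below the share in neurons, but depth was not made equal for these shares. Kirrel3, an adhesion molecule of the immunoglobulin family, had 396, 652 and 846 CPM in members against 1674, 2445 and 2752 CPM, a ratio of -1.74. Ptgds, which makes prostaglandin D, had 116, 173 and 388 CPM against 282, 592 and 1304 CPM, with overlapping mice but a lower level in members within each mouse. Gabrr2, a GABA receptor subunit, had a ratio of -1.75, Gfra1, a receptor of glial cell line-derived neurotrophic factor, one of -1.69, and Synpr, a synaptic vesicle protein, one of -1.63. The remaining genes of the 12 were 7630403G23Rik, Gm5087, Slc13a1, Nckap5, Rasal1 and Aebp1, with ratios of -2.37 to -1.55.

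**Figure D1:**
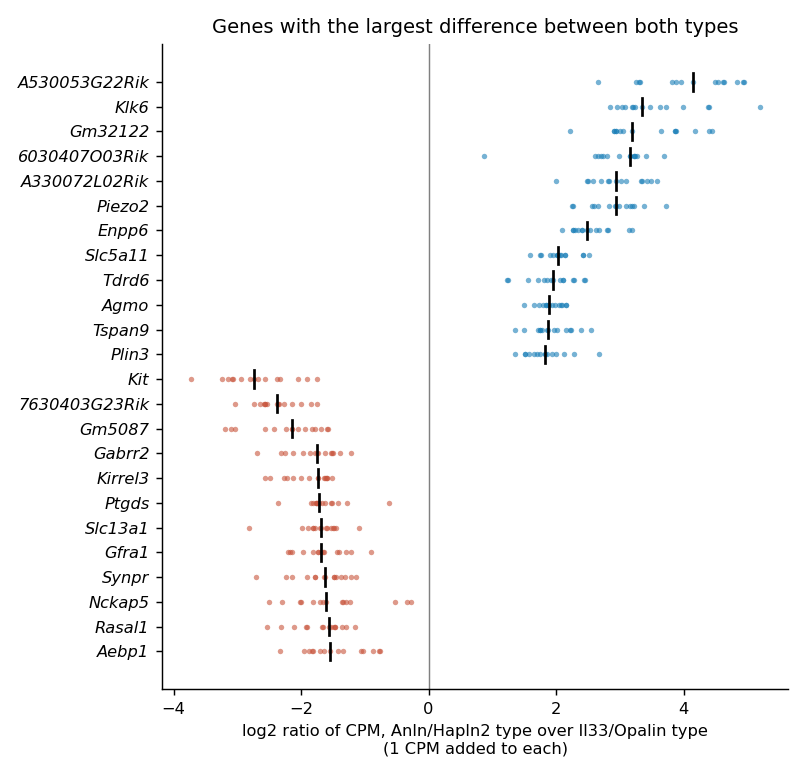
Each point is 1 of 15 mice, and the x axis gives the log2 ratio of CPM in the Anln/Hapln2 type over the Il33/Opalin type, with the median as a black bar. The 12 genes of each direction lie on 1 side of 0 in every mouse, from a median of 4.15 for A530053G22Rik to -2.74 for Kit.

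Genes of myelin proteins lay on both sides. The ratio of Mbp, myelin basic protein, was 0.04 (range over mice -0.04 to 0.18). Of 18 myelin genes measured, 5 were higher in members in all 15 mice and 7 were lower, with a median ratio of 0.06. Over all measured genes these shares were 7.41% and 4.86%. Cldn14 at 0.95 and Gjb1, a connexin, at 0.58 stood on the higher side, and Cd9, a tetraspanin, at -1.02, Tspan2 at -0.64 and Nfasc, which encodes the paranodal and nodal protein neurofascin, at -0.62 on the lower side. Of 14 genes of the myelin cytoskeleton, 5 were higher and 2 lower, with Sept8 at 0.47 and Sept7 at 0.23 higher and Sept4 at -0.29 lower.

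Several lipid genes had higher levels in members. Of 18 genes of fatty acid and sphingolipid synthesis measured, 5 were higher in all mice and 1 lower, with a median ratio of 0.14. Over all measured genes 7.41% were higher and 4.86% lower in all mice. The level of Acaca, the rate-limiting enzyme of fatty acid synthesis, was 531 CPM ± 45.3 (SD, n = 15) in members and 371 CPM ± 23.6 in the Il33/Opalin type, and Elovl5 had 110 ± 15.9 and 73.8 ± 9.80 CPM. Elovl6 was the exception at -0.27. None of 10 measured genes of cholesterol synthesis lay on 1 side in all mice. Of 6 measured iron genes, Trf and the ferritin subunit gene Fth1 were higher in all mice, at 0.54 and 0.24.

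Of 13 measured genes known to vary between states of mature oligodendrocytes, 6 were higher in members in all mice and 2 lower. Over all measured genes these shares were 7.41% and 4.86%. Selenop, which encodes a selenium carrier, had 116 CPM ± 27.4 in members against 38.9 CPM ± 10.7, and S100b, a calcium-binding protein gene, 61.3 ± 16.5 against 20.7 ± 5.95 CPM. S100b had a UMI in 17.0% of members, 6.38% of Il33/Opalin-type nuclei and 6.12% of the deeper neurons. Apod, the gene of apolipoprotein D, had a ratio of 0.92 and Serpinb1a, a protease inhibitor gene, one of 0.91. Neuregulin receptor Erbb4 had 1357 CPM ± 118 in members against 2353 CPM ± 224, and the ephrin receptor Ephb1 682 ± 84.4 against 479 ± 63.9 CPM. Of 14 transcription factors of the lineage, Olig1 at -0.32 and Zfp536 at -0.27 were lower in all mice, and none was higher in all.

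Levels were followed along the difference of both UMI sums. Nuclei were divided into 5 classes of that difference, from at most -5 (5344 nuclei) over -4 to -2 (7746), -1 to 1 (8898) and 2 to 4 (3649) to at least 5 (2829). The mean Klk6 level over mice was 0.712, 0.938, 1.91, 10.3 and 43.3 CPM from the first to the last class, and that of Enpp6 33.7, 53.0, 121, 241 and 375 CPM. Kit had 91.0, 62.0, 22.04, 10.8 and 6.18 CPM and Kirrel3 2746, 2191, 1821, 691 and 384 CPM. Klk6 was thus highest in the last class, whereas Kirrel3 was lower in each step. Other genes did not run in 1 direction, with 462, 300, 419, 119 and 84.6 CPM for Synpr, 232, 185, 216, 76.3 and 50.2 CPM for Nckap5 and 800, 848, 655, 1176 and 1390 CPM for Trf. Deeper nuclei reach larger differences more often, and the part of depth in these levels was not tested.

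**Figure D2:**
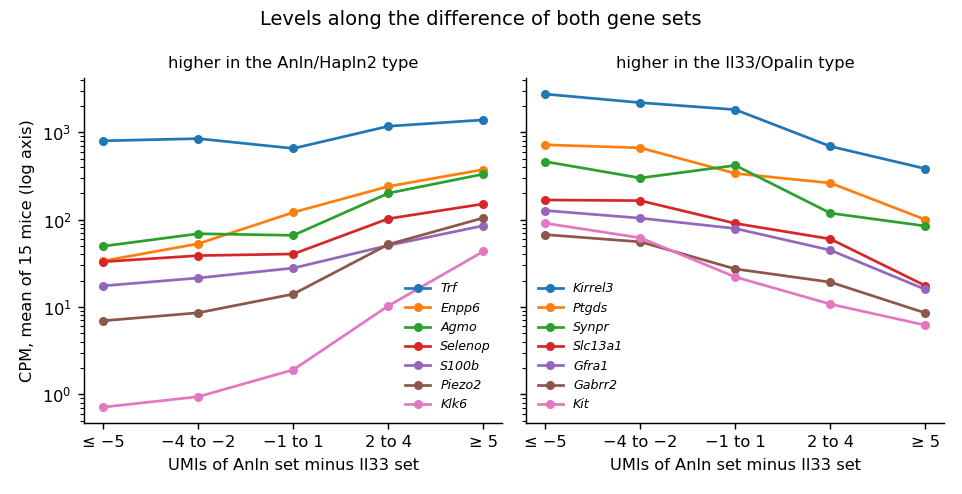
The y axis gives the mean CPM over 15 mice on a log axis and the x axis 5 classes of the UMIs of Anln, Hapln2 and A330049N07Rik minus those of Il33, Opalin and C030029H02Rik. Lines in the left panel end higher than they start, as Klk6 from 0.712 to 43.3 CPM, and lines in the right panel end lower, as Kit from 91.0 to 6.18 CPM, while Trf, Agmo and Synpr do not run in 1 direction throughout.

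No difference between groups was detected in the share of the type among oligodendrocytes. Members made up 26.5% to 30.96% of oligodendrocyte nuclei in NP mice (median 28.4%). The 4 control RE mice 66, 72, 87 and 88 had 28.3%, 27.4%, 29.3% and 23.8%. The 5 stress RE mice 43, 70, 75, 77 and 90 had 28.4%, 27.3%, 32.0%, 27.5% and 26.6%. The groups overlapped, with means of 28.9% ± 1.71 (SD, n = 6), 27.2% ± 2.39 (n = 4) and 28.4% ± 2.15 (n = 5), and the lowest and highest mouse of all were control RE 88 and stress RE 75.

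No difference in the share passed a two-sided exact permutation test over mice. Control RE minus NP was -1.66 percentage points (exact permutation p = 0.238), stress RE minus control RE 1.15 (p = 0.508) and stress RE minus NP -0.51 (p = 0.697). Adjusted by Benjamini-Hochberg over 12 tests of 4 forms of the share, every adjusted p was 0.873 in the exact permutation test. The smallest p the design allows is 0.00476, 0.00794 and 0.00216. Within batch 2 the differences were -4.04, 1.43 and -2.60 points, and within batch 3 -0.77, 1.40 and 0.63 points. Among both types alone, members were 34.5% ± 3.26, 34.2% ± 1.98 and 33.8% ± 3.41 in the NP, control RE and stress RE group, in that order. Thinned to 1000 UMIs per nucleus, which left out 109 shallower nuclei, the shares were 17.7% ± 2.21, 17.5% ± 2.68 and 17.7% ± 3.47.

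**Figure D3:**
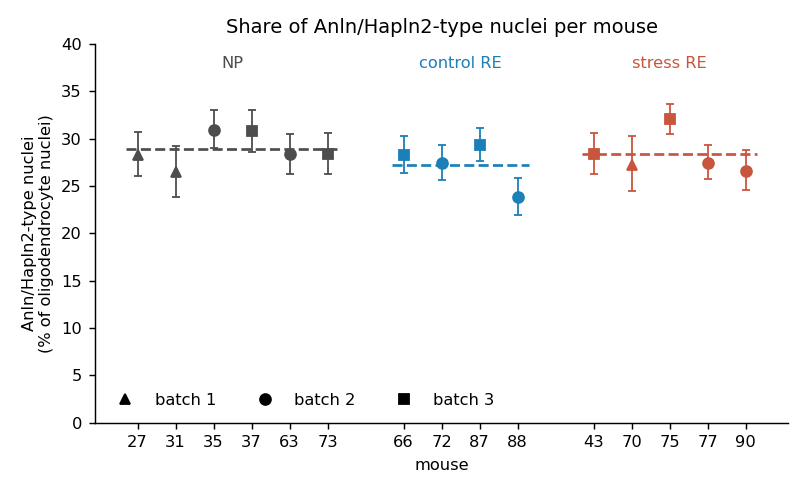
Each point is the share of Anln/Hapln2-type nuclei among the oligodendrocyte nuclei of 1 mouse in percent, with its 95% Wilson interval for counting error only, and dashed lines are group means. Symbols give the batch, and all 15 mice lie between 23.8% and 32.0%.

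The share was set beside the tissue make-up of the punches. Across 15 mice it correlated with the summed CPM of 8 striatal neuron markers in the library (Pearson r = 0.66, permutation p = 0.00847, adjusted p = 0.0339 over 4 relations, permutation test, Spearman rho = 0.55, permutation p = 0.0384, adjusted p = 0.0768). Without stress RE mouse 75 and NP mouse 35, the 2 mice farthest from the median marker level, r was 0.17 (permutation p = 0.508), so the relation rests on those mice. It was 0.74 within batch 2 and 0.72 within batch 3 (6 mice each, exact permutation p = 0.0889 and 0.124). Mouse 35 was in batch 2 and mouse 75 in batch 3, so each of these values includes 1 of those mice. With oligodendrocytes as a percent of barcodes, r was 0.53 (permutation p = 0.0403, adjusted 0.0805) and rho 0.63 (permutation p = 0.0146, adjusted 0.0584). Without the 2 farthest mice it was 0.65, within batch 2 it was 0.38 and within batch 3 0.73. With thalamic or habenular markers r was 0.22 (permutation p = 0.420) and rho 0.26 (p = 0.355), and r was 0.50 without the 2 farthest mice. With the median UMIs of oligodendrocyte nuclei r was -0.18 (permutation p = 0.517) and rho -0.08 (p = 0.783), and r was 0.13 within batch 2 and -0.73 within batch 3.

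Group differences in gene levels within the type were tested on UMIs summed per mouse. No gene passed an adjusted p of 0.05 by edgeR's quasi-likelihood test with Benjamini-Hochberg adjustment in control RE minus NP, stress RE minus control RE or stress RE minus NP (0.0% of 11902 genes in each), while 489, 644 and 376 genes in turn fell under 0.05 before adjustment. These counts moved with single mice, since without control RE mouse 88 the first 2 were 237 and 364, and without stress RE mouse 90 the last 2 were 1151 and 658. With high-scoring nuclei removed, control RE minus NP had 88 genes higher and 175 lower in place of 253 and 236. DESeq2 called 0, 5 and 0 genes. The 5 genes (0.042% of those tested), Bcat1, Zbtb16, Fkbp5, Map7d2 and Htra1, were all lower in stress RE than in control RE mice. Among genes with at least 20 CPM they are also the 5 with the smallest p in that direction in edgeR, which used the same summed UMIs. At an unadjusted p under 0.05, 2.71% of genes were higher and 2.71% lower in stress RE than in control RE mice. With no group difference at all, a fraction of about 0.05 of the tests would fall under that p, split over both directions.

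Zbtb16, a transcription factor gene that glucocorticoids induce, and Fkbp5, which encodes a co-chaperone of the glucocorticoid receptor and is induced by it, had lower levels in stress RE than in control RE mice. The Zbtb16 level in members was 274, 266, 407 and 453 CPM in the 4 control RE mice and 118, 192, 148, 119 and 189 CPM in the 5 stress RE mice, against 125 to 264 CPM in NP mice (median 235). No stress RE mouse reached the lowest control RE mouse, as for 0.63% of all genes tested, while 0.849% lay higher without overlap. The log2 fold change was -1.21 (standard error, SE, 0.23, adjusted p = 0.223 by edgeR, 0.00407 by DESeq2). The Fkbp5 level was 56.2, 53.7, 65.1 and 88.6 CPM in the control RE mice, 20.9, 42.1, 38.9, 32.1 and 33.3 CPM in the stress RE mice and 36.4 to 52.5 CPM in NP mice (median 38.1). In GRCm38 Zbtb16 lies on chromosome 9, 48654297 to 48836222, and Fkbp5 on chromosome 17, 28399094 to 28517527. Both RE groups again did not overlap, and the log2 fold change was -1.004 (SE 0.19, adjusted p = 0.223 by edgeR, 0.00946 by DESeq2).

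Both genes were also counted in neurons. Zbtb16 had a UMI in 45.5% of members, 47.7% of Il33/Opalin-type nuclei and 88.3% of the deeper excitatory neurons, and Fkbp5 in 12.8%, 12.8% and 51.3%. In the excitatory neurons of the same libraries the Zbtb16 level was 248 CPM ± 14.1 (SD, n = 4) in the control RE group and 236 CPM ± 72.2 (n = 5) in the stress RE group, and that of Fkbp5 55.8 ± 6.82 and 48.1 ± 2.71 CPM. In the Il33/Opalin type Zbtb16 had 411 CPM ± 123 in the control RE group and 172 CPM ± 55.4 in the stress RE group. The summed neuron markers in members were 10148 to 13519 CPM (median 11587) in the control RE group and 5789 to 11679 CPM (median 9707) in the stress RE group. Their part in the result was not tested.

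Bcat1 (GRCm38 chromosome 6, 144993835 to 145076184), the cytosolic aminotransferase of branched-chain amino acids, had the smallest p among genes with at least 20 CPM. Its level was 92.4, 90.6, 107 and 115 CPM in control RE mice, 51.0, 68.7, 66.4, 64.3 and 58.4 CPM in stress RE mice and 78.8 to 109 CPM in NP mice (median 87.2). Stress RE mice lay below both other groups with no overlap, and the gene was chosen by its p. Among all genes tested, 0.63% lay lower and 0.849% higher than control RE without overlap, and 0.101% lower and 0.0756% higher than NP. The log2 fold change was -0.73 against control RE (SE 0.13, adjusted p = 0.223 by edgeR, 0.00354 by DESeq2). Bcat1 was also among the genes higher in members than in the Il33/Opalin type, which had 37.6 CPM ± 7.75 in the control RE group and 26.3 CPM ± 5.29 in the stress RE group.

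Htra1, a secreted serine protease, had 64.6, 59.5, 70.6 and 93.0 CPM in the control RE mice, 38.03, 33.9, 43.2, 51.3 and 30.6 CPM in the stress RE mice and 50.8 to 83.5 CPM in NP mice (log2 fold change -0.87, SE 0.17, adjusted p = 0.253 by edgeR, 0.0141 by DESeq2). Map7d2, a microtubule-associated protein, had 111, 102, 119 and 136 CPM in the control RE mice, 70.03, 74.2, 90.4, 84.4 and 74.1 CPM in the stress RE mice and 87.7 to 113 CPM in NP mice (-0.58, SE 0.11, adjusted p = 0.223 by edgeR, 0.0129 by DESeq2). For both genes every stress RE mouse lay below every control RE mouse, as for 0.63% of all genes tested, while 0.849% lay higher without overlap. Within batches 2 and 3 the log2 ratio of mean CPM was -1.22 and -1.35 for Zbtb16, -1.10 and -0.998 for Fkbp5, -0.73 and -0.75 for Bcat1, -0.58 and -0.51 for Map7d2 and -0.88 and -0.72 for Htra1.

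On the other side stood genes with higher levels in stress RE mice, none of which passed either tool. Car2, the carbonic anhydrase of oligodendrocytes, had 710, 611, 582 and 526 CPM in the control RE mice and 875, 755, 884, 861 and 644 CPM in stress RE mice, which overlapped (log2 fold change 0.39, SE 0.10, adjusted p = 0.882 by edgeR, 0.127 by DESeq2). Srebf2, the main transcription factor of sterol synthesis, had 122, 115, 108 and 108 CPM in the control RE mice and 145, 155, 132, 160 and 143 CPM in stress RE mice (0.36, SE 0.09, adjusted p = 0.882 by edgeR). These did not overlap, as for 0.849% of all genes tested, while 0.63% lay lower without overlap. Anp32b, Psma7, a proteasome subunit, and Ado, a thiol dioxygenase, had log2 fold changes of 0.60, 0.63 and 0.76, with adjusted p of 0.643 to 0.882 by edgeR. That of Ado was 0.44 with equal numbers of nuclei per mouse and 0.89 without stress RE mouse 90, whose level stood apart at 17.7 CPM.

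**Figure D4:**
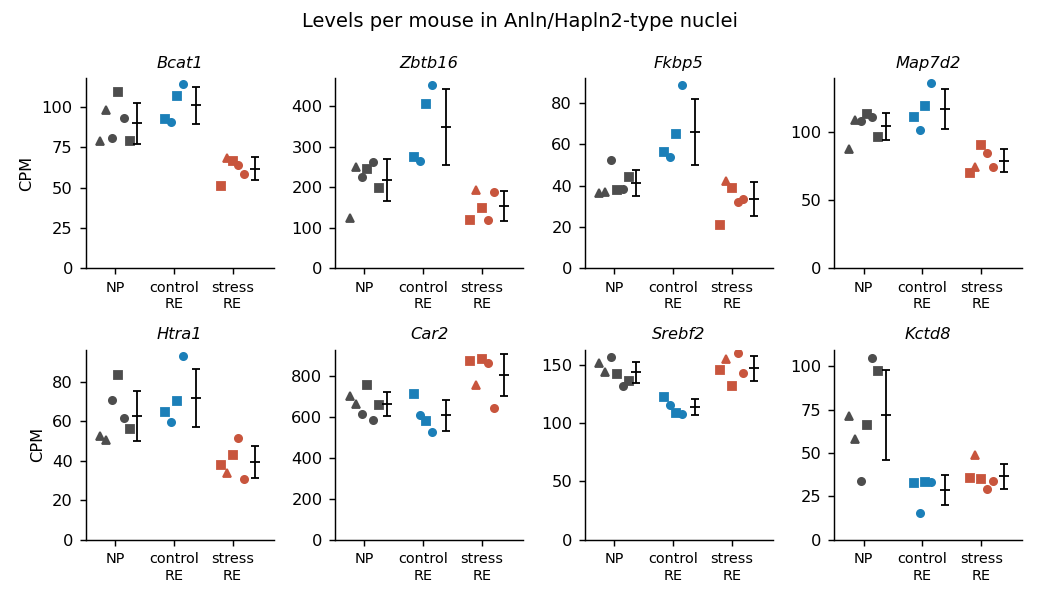
Each point is the CPM of 1 mouse in Anln/Hapln2-type nuclei, with triangles for batch 1, circles for batch 2 and squares for batch 3, and bars give the mean and SD of the group. In Bcat1, Zbtb16, Fkbp5, Map7d2 and Htra1, which were chosen by their p, all 5 stress RE mice lie below all 4 control RE mice. The same holds for 0.63% of all genes tested, and 0.849% lie higher without overlap.

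Between control RE and NP mice, 2.13% of genes were higher and 1.98% lower at an unadjusted p under 0.05. Kctd8, an auxiliary subunit of GABA-B receptors, had the smallest p among genes with at least 20 CPM. Its level was 32.5, 15.6, 33.1 and 33.4 CPM in the control RE mice and 33.9 to 105 CPM in NP mice (median 68.9). These did not overlap, as for 0.403% of all genes tested (0.378% in the other direction). The log2 fold change was -1.33 (SE 0.28, adjusted p = 0.999 by edgeR, 0.0502 by DESeq2). Cadm4, an adhesion molecule between glia and axons, had -0.77, the translation factor Eef2 -0.74, Srebf2 -0.33 and the fatty acid elongase Elovl6 -0.34, each with an adjusted p of 0.999 by edgeR. Fkbp5 had 0.68, Fam189a1 0.63, the chondroitin sulfotransferase Chst11 0.63, the scaffold Iqgap2 1.07 and Mir9-3hg 0.80, with adjusted p of 0.999 by edgeR. With Scrublet's high-scoring nuclei removed, Fam189a1 had 0.17, Chst11 0.26, Iqgap2 0.44 and Mir9-3hg 0.37. These 4 genes had higher levels in excitatory neurons, at 462 CPM ± 22.5, 253 ± 48.6, 562 ± 115 and 108 ± 8.77 CPM in control RE mice, and the part of such nuclei was not tested.

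Between stress RE and NP mice, 1.62% of genes were higher and 1.54% lower at an unadjusted p under 0.05. Bcat1 had a log2 fold change of -0.55 (standard error 0.12), Cpne4, a calcium-dependent membrane-binding protein, -0.76, Htra1 -0.67, Kctd8 -1.02 and Map7d2 -0.41, with adjusted p of 1.00 by edgeR. Psma7 had 0.60, the actin-binding protein Lima1 0.60, the neuronal gene Nrgn 0.67, Sox6, a transcription factor of progenitors, 0.83 (1.28 with high-scoring nuclei removed) and Txnl1 0.46, with adjusted p of 1.00 by edgeR as well. Of these 10, which were chosen by their p, Bcat1, Psma7 and Txnl1 did not overlap between stress RE and NP mice, and over all genes tested 0.0756% lay higher and 0.101% lower without overlap. Nrgn is 1 of 12 neuron markers, whose median in stress RE minus NP was -0.06, or -0.38 with high-scoring nuclei removed.

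Gene lists of oligodendrocyte function gave no gene that passed edgeR in any comparison, and are described by counts and medians. Control RE mice enter both of the first comparisons, so opposite signs of their medians share those mice. Of 21 genes of cholesterol synthesis, 5 had an unadjusted p under 0.05 and were higher in stress RE than in control RE mice, namely Srebf2, Msmo1 (0.37), Sc5d (0.43), Hmgcs1 (0.53) and Fdft1 (0.34), and none was lower, with a list median of 0.30. Against NP, 4 of the 21 were lower in control RE mice and none higher, with a median of -0.23 (-0.15 with high-scoring nuclei removed). The median over all genes was -0.001 in both comparisons. Over all genes tested, 2.71% were higher and 2.71% lower in stress RE than in control RE mice at an unadjusted p under 0.05. In control RE minus NP these shares were 2.13% and 1.98%.

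Of 20 genes of fatty acid and sphingolipid synthesis, 6 were higher in stress RE than in control RE mice at that level and none lower (median 0.19), among them Ugt8a, which makes galactosylceramide, at 0.31, Fa2h, a fatty acid hydroxylase, at 0.27 and the desaturase Scd1 at 0.66. In control RE minus NP 5 were lower and none higher (median -0.19), with Scd1 at -0.85 and Srebf1 at -0.74. Of 18 myelin genes, 4 were higher in stress RE than in control RE mice at that level and none lower. Examples were Pllp at 0.50 and Cd9 at 0.60, and the list median was 0.25. In control RE minus NP 2 of the 18 were lower, Tmem63a at -0.35 among them, with a median of -0.27, which was -0.15 with batch as a term, -0.14 without batch 1 and -0.17 with high-scoring nuclei removed. Trf had 0.37 in the former and -0.37 in the latter comparison. Over all genes tested, 2.71% were higher in the former and 1.98% lower in the latter at that level.

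Of 19 glucocorticoid-responsive genes tested, 4 were lower in stress RE than in control RE mice at an unadjusted p under 0.05 by edgeR. These were Zbtb16, Fkbp5, Per1, a clock gene, at -0.61 and Plekhf1 at -0.58. None was higher at that p, and the list median was -0.20 (-0.13 without batch 1). Zbtb16 and Fkbp5 were already named above for this comparison, so the count in part repeats those results. In control RE minus NP, Zbtb16 at 0.70 and Fkbp5 at 0.68 were higher at that p and none was lower. The list median was 0.05 (0.02 without batch 1). In stress RE minus NP, Zbtb16 at -0.52, Per1 at -0.62 and Plekhf1 at -0.65 were lower at that p. Ddit4, a stress-induced inhibitor of mTOR signalling, at 0.50 was higher, with a list median of -0.11. Over all genes tested, 2.71%, 1.98% and 1.54% were lower at that p in stress RE minus control RE, control RE minus NP and stress RE minus NP. The shares higher were 2.71%, 2.13% and 1.62%. The receptors themselves had an unadjusted p over 0.05, with Nr3c1 at 0.20 and Nr3c2 at -0.35 in stress RE minus control RE. Sgk1 and Tsc22d3, also induced by glucocorticoids, had -0.37 and -0.14, with unadjusted p of 0.182 and 0.267 by edgeR.

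Of 12 neuron markers in the same nuclei, 3 were lower in stress RE than in control RE mice at an unadjusted p under 0.05 (Grin2a, Celf4 and Camk2a). None was higher at that p, and the median was -0.40. In control RE minus NP, 3 were higher at that p and the median was 0.29, or -0.07 with high-scoring nuclei removed. In stress RE minus control RE the neuron markers had a median of the opposite sign to the lipid and myelin lists. In control RE minus NP the signs were opposite with all nuclei but the same with high-scoring nuclei removed, where the cholesterol, fatty acid and myelin medians were -0.15, -0.13 and -0.17. The part of neuron RNA in those lists was not tested. Other lists had medians of similar size. In stress RE minus control RE, 12 heat shock and immediate early genes had a median of 0.29 (1 gene higher at an unadjusted p under 0.05, none lower) and 12 immune-related genes 0.24 (1 higher, none lower). In control RE minus NP these lists had -0.25 (none in either direction) and -0.27 (2 lower, none higher), or -0.12 and -0.13 without batch 1. The 8 microglia markers tested had -0.30 and 0.43 in these comparisons (-0.19 and 0.25 without batch 1), with no gene under that p in either. In stress RE minus NP the medians of the cholesterol, fatty acid and myelin lists were 0.02, -0.02 (0.00287 with batch as a term) and 0.03 (the first and last 0.11 and 0.08 without batch 1), with 2, 1 and 0 genes higher and 0, 1 (Elovl1 at -0.51) and 0 lower at an unadjusted p under 0.05. The shares of all genes tested that were higher and lower at that p were 2.71% and 2.71% in stress RE minus control RE. They were 2.13% and 1.98% in control RE minus NP and 1.62% and 1.54% in stress RE minus NP.

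Of 26 genes of axon-glia contact and neuregulin signalling, 6 were lower in control RE than in NP mice at an unadjusted p under 0.05 and none higher, namely Cadm4, Lpar1 (-0.22), Plxnb3 (-0.32), the neuregulin receptor Erbb3 (-0.32), Nectin1 (-0.49) and Plxnb1 (-0.51), while the list median was -0.06 (-0.11 with high-scoring nuclei removed). In stress RE minus control RE 3 of the 26 were higher at that p, Lpar1 at 0.35, Unc5b at 0.40 and Cadm4 at 0.55. None was lower at that p, and the median was 0.07 (0.03 with batch as a term). Of 8 iron genes, Trf and the ferritin genes Fth1 (0.78) and Ftl1 (0.89) were higher in stress RE than in control RE mice at that p. The iron list had a median of -0.10 (-0.17 with high-scoring nuclei removed). Of 16 genes of progenitors and newly formed oligodendrocytes, 4 were higher in stress RE than in NP mice at that p (Tnr, Fyn, Vcan and Gpr17). None was lower at that p, and the median was 0.29. Over all genes tested, 1.98% were lower in control RE than in NP mice at an unadjusted p under 0.05. In stress RE mice 2.71% were higher than in control RE mice and 1.62% higher than in NP mice. Of 11 hormone receptors tested, 0 passed in any comparison by edgeR and 0 had an unadjusted p under 0.05.

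The group differences were then tested against those of the Il33/Opalin type in the same mice, with the mouse as a block. Of 13370 genes, edgeR called 0 (0.0%), 1 (0.00748%) and 0 (0.0%) for control RE minus NP, stress RE minus control RE and stress RE minus NP, and 588, 687 and 565 in turn fell under 0.05 before adjustment. The 1 gene was Gmnc, a regulator of multiciliated cells, with only 116 UMIs in members and 193 in the Il33/Opalin type. The 5 genes that DESeq2 called gave differences between types of 0.09 for Zbtb16, 0.01 for Fkbp5, -0.18 for Bcat1, -0.01 for Map7d2 and -0.05 for Htra1 on the log2 scale, with standard errors of 0.08 to 0.15 and adjusted p of 1.00 by edgeR. In the Il33/Opalin type alone the same contrast gave -1.28 for Zbtb16, -1.01 for Fkbp5, -0.55 for Bcat1, -0.53 for Map7d2 and -0.82 for Htra1.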

How the data were processed

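UMI counts per barcode and gene (32285 genes) were the counts that the authors deposited, whole numbers made with Cell Ranger (7.1.0 per the labels, 7.0.0 per the file headers) against mm10 and limited to barcodes called as nuclei, neither normalized nor corrected for doublets or free RNA. Gene positions came from GENCODE vM21 (GRCm38). The members, gene lists and tests were chosen with earlier results of these data known. UMIs were summed per mouse and type, and CPM were taken over those sums. edgeR 4.0.16 in R 4.3.3 (filterByExpr, TMM, quasi-likelihood test) fitted all 3 groups together, with DESeq2 1.42.0 as an alternative and both called at a Benjamini-Hochberg adjusted p under 0.05. The edgeR fits were tested on simulated data. The paper states that dams shared cages after weaning with mice of their own condition, and the cage of each mouse is not given. Cage therefore cannot be told apart from group. The p-values set group differences against the spread between these mice, and take mice that may have shared a cage as independent. Shares were compared by exact permutation over mice, with 95% Wilson intervals, which cover counting error only. Correlations used 100000 permutations. Scrublet (scanpy 1.11.5, Python 3.11.15) marked 0.8% of barcodes per 1000 as high-scoring, and these stayed in the main results. Named genes were the 12 of each direction between types with the largest median log2 ratio, at least 20 CPM and 1 direction in every mouse, the 5 of each direction per comparison with the smallest p and at least 20 CPM, and examples from the lists. The list members named for their unadjusted p, the receptors, Sgk1 and Tsc22d3, and Bcat1 between types were chosen after their values were seen. Excitatory neurons were barcodes with at least 5 UMIs of Slc17a7 and none of St18, Mog and Mag. Alternatives were other scaling, no filter, batch as a term, each mouse left out, high-scoring nuclei removed, sums of at least 3, 246 nuclei per mouse and thinning to 1000 UMIs. A fit without the 3 mice of batch 1 was added after the data were seen. Some genes are not reported here.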

Additional observations from a re-analysis of the deposited data

Results flagged for a closer look

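In 2 of 81 groups of mice examined, 1 mouse stood far from the rest of its group, and chance gives about 1 in 20. Genes of the rule were left out, since the selection sets their levels. This was decided after the values were seen, and with those genes it was 5 of 108. Kctd8 had 15.6 CPM in control RE mouse 72, against a median of 33.1 CPM in the other control RE mice. Ado had 17.7 CPM in stress RE mouse 90, against a median of 32.7 CPM.

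Gmnc was the gene whose difference between stress RE and control RE mice differed between types, at -3.83 on the log2 scale (standard error 0.61, adjusted p = 0.00776 by edgeR). Control RE members held 71 of its UMIs, 38 of them in mouse 87 and 24 in mouse 66, and stress RE members 18, while in the Il33/Opalin type control RE mice held 25 and stress RE mice 90, of which 71 came from mouse 75. Without stress RE mouse 75 or without control RE mouse 87 no gene was called in that comparison. No gene was called without the mouse as a block either.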

How the results depend on the processing

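edgeR called no gene in any group comparison under other scaling, batch as a term, high-scoring nuclei removed, sums of at least 3, without batch 1 or with any mouse left out (0 to 0). In stress RE minus control RE, DESeq2 called 5, the fit with no filter 1 (Zbtb16) and that with equal nuclei per mouse 1 (Map7d2). Over the 23 alternatives the log2 fold change ranged from -1.33 to -1.06 for Zbtb16 (adjusted p 0.00407 to 0.990), -1.15 to -0.83 for Fkbp5 (0.00946 to 0.990), -0.81 to -0.66 for Bcat1 (0.00354 to 0.990), -0.83 to -0.50 for Map7d2 (0.0129 to 0.992) and -1.05 to -0.72 for Htra1 (0.0141 to 1.00). Calls for the difference between types ranged over the left-out mice from 0 to 2, 0 to 3 and 0 to 1, and were 0 without the mouse as a block.

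With a mouse left out, the share difference ranged from -2.36 to -0.53 (control RE minus NP), 0.02 to 1.85 (stress RE minus control RE) and -1.43 to -0.08 points (stress RE minus NP). With sums of at least 3 the mean shares were 25.8% (NP), 23.3% (control RE) and 25.1% (stress RE). Control RE mice then lay further below both other groups than under the main rule, which was not tested. The median UMIs per member averaged 3455 (NP), 2699 (control RE) and 3070 (stress RE) over mice. At 1000 UMIs per nucleus the mean shares were 17.7%, 17.5% and 17.7% in that order, and the part of depth was not tested. Stress RE minus control RE turned to -0.37 among both types and -0.0383 as a log2 ratio of UMI sums. Stress RE minus NP turned to 0.0367 when thinned, 0.26 of all barcodes and 0.63 in batch 3. Thinning to 1000 UMIs left 177 genes higher and 141 lower in members in every mouse, with fewer UMIs by construction. Under other scaling, DESeq2, batch as a term, without batch 1 and without high-scoring nuclei, 27 recomputed medians (of lists or of all genes) had the other sign. The correlation with the striatal markers (0.17 without the 2 farthest mice, 0.74 and 0.72 within batches) no longer passed, that with the oligodendrocyte percent was 0.38 and 0.73 within batches and had not passed after adjustment over all mice, and that with UMIs turned to 0.13 in batch 2, and the cause was not tested. No paired analysis was possible because the labels pair no mice across groups, so batch was fitted as a term instead, and between types the mouse was the block.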
